A study of Mus musculus with 8 samples.

Results

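The genes described here encode the enzymes that cut the extracellular matrix of fat, the inhibitors that hold those enzymes in check, and the oxidases that crosslink matrix fibres. They were taken by gene name from the 28295 rows of the expression table: matrix metalloproteinases (Mmp), tissue inhibitors of metalloproteinases (Timp), secreted ADAMTS proteases, the protease-like ADAMTSL proteins and the lysyl oxidases (Lox and Loxl). Of 54 genes with such a name, 44 had a mean level of at least 0.1 FPKM over the 8 libraries and are the members: 15 MMPs, 4 TIMPs, 15 ADAMTS, 5 ADAMTSL and 5 lysyl oxidase genes. FPKM is the number of fragments per kilobase of gene and per 1000000 mapped fragments, so levels of different genes can be set side by side. Just inside the minimum was Adamts19 (mean 0.126 FPKM), and just outside it were Mmp8 (0.0991 FPKM) and Adamts17 (0.0891 FPKM).

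Poly(A) RNA was sequenced from the epididymal white fat of male mice. The Cul3AKO group (4 libraries, Cul3AKO1 to Cul3AKO4) carried AdipoQ-Cre together with Cul3-flox/flox alleles. The WT group (4 libraries, WT1 to WT4) carried Cul3-flox/flox alleles without the Cre. Both groups had eaten a Western diet for 8 weeks and had been fasted for 6 h, and the sources used here give neither the age of the mice nor any pooling of animals. The product of Cul3, cullin 3, is the backbone on which a class of ubiquitin ligases is built, and the Adipoq promoter drives Cre in adipocytes, so the other cells of the fat should keep the gene. Cul3 RNA itself was 10.6, 11.2, 13.2 and 13.0 FPKM in Cul3AKO1 to Cul3AKO4, against 11.4, 9.66, 12.4 and 11.5 FPKM in WT1 to WT4. It did not pass the test (log2 fold change 0.09 ± 0.10, limma adjusted p = 0.520). It was called higher under the 2 scalings that moved all genes upwards, to a sum of 1000000 and to the reads in listed genes (0.37 and 0.34, adjusted p = 0.0477 and 0.0397), and in no alternative was it called lower, so the RNA does not bear out the genotype labels. The group is therefore called Cul3AKO-labelled, and every direction below rests on the labels.

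Reads in listed genes, in units of 1000000 reads and as recovered from the FPKM values, numbered 15.2 to 18.7 per Cul3AKO-labelled library and 17.7 to 19.7 per WT library. These made up 62.6% to 66.1% and 74.1% to 78.7% of the FPKM denominator. The tissue label fitted its markers: Adipoq stood at 270 to 375 FPKM in Cul3AKO-labelled fat and 452 to 745 FPKM in WT fat. Of 10 adipocyte markers, 9 were called lower, with sums of 1974 to 2812 FPKM and 3842 to 5312 FPKM, and their part in the results below was not tested. WT4 and Cul3AKO4 stood apart in their groups. The summed level of 12 macrophage markers was 1693, 1611, 1214 and 723 FPKM in Cul3AKO1 to Cul3AKO4 and 650, 541, 541 and 1568 FPKM in WT1 to WT4. WT1 and WT2 had the highest sums of 8 liver transcripts (296 and 805 FPKM, against 79.8 to 190 FPKM in WT3 and WT4 and 50.8 to 179 FPKM in the Cul3AKO-labelled group). Where leaving these libraries out changed a member's call, both values are given.

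Matrix metalloproteinases are made as inactive precursors, and together they can cut collagens, gelatin, elastin and the core proteins of proteoglycans. TIMPs bind the active enzymes. ADAMTS proteases trim procollagens and cut large proteoglycans such as versican, while ADAMTSL proteins lack the catalytic domain and bind microfibrils. Lysyl oxidases start the crosslinks that make collagen and elastin fibres stiff. In growing fat these activities remodel the matrix around enlarging adipocytes and new vessels.

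Of the 44 members, 38 had a mean of at least 0.5 FPKM and were tested, with all 14400 such genes, by limma on log2(FPKM + 0.5). Calls were made where the adjusted p (Benjamini-Hochberg, over all 14400) was under 0.05. In Cul3AKO-labelled fat, 5 members were called higher (Mmp11, Adamts6, Lox, Adamtsl2 and Adamts7) and 2 were called lower (Mmp15 and Adamts1). That is 13.2% and 5.26% of the tested members, where 11.7% of all tested genes were called higher and 18.6% lower. The median log2 fold change was -0.07 over the tested members and -0.02 over all tested genes. The FPKM ranges of the groups did not overlap for 6 members on the higher side and 4 on the lower side, against 12.1% and 19.1% of all tested genes. The genes that moved came from different families, and in each family most members had no call: 11 of 13 tested MMPs, 4 of 4 TIMPs, 8 of 11 ADAMTS, 4 of 5 ADAMTSL and 4 of 5 lysyl oxidases.

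**Figure D1:**
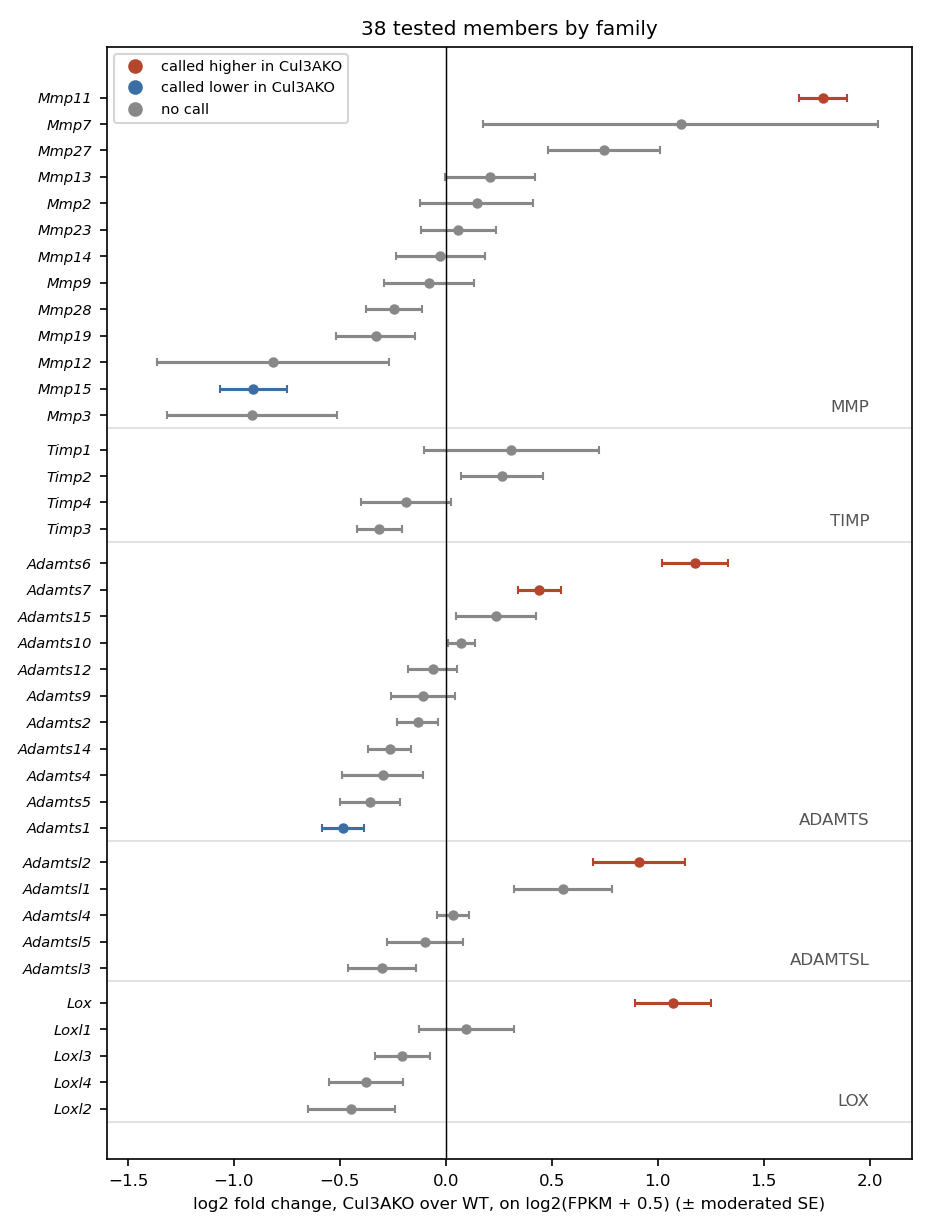
The log2 fold change of each of the 38 tested members, Cul3AKO over WT on log2(FPKM + 0.5), with the moderated standard error of limma, by family; red points were called higher in the Cul3AKO-labelled group (5 members), blue points lower (2 members), and grey points had no call (31 members). Mmp11 lies farthest to the right (1.78), and the widest bars belong to Mmp7 and Mmp12.

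Among the secreted metalloproteinases, Mmp11 changed most. Mmp11 (ENSMUSG00000000901, chromosome 10, 75923222 to 75936496) encodes stromelysin 3, which unlike most MMPs leaves the cell already activated by furin. Its level was 13.4, 12.6, 12.9 and 10.05 FPKM in Cul3AKO1 to Cul3AKO4, against 2.89, 2.87, 3.27 and 3.76 FPKM in WT1 to WT4. Every Cul3AKO-labelled library lay far above every WT library. The means were 12.2 ± 1.49 FPKM in the Cul3AKO-labelled group and 3.20 ± 0.418 FPKM in WT (SD, n = 4 each), a ratio of 3.82. On the log2 scale it rose by 1.78 ± 0.11 (limma adjusted p = 3.74e-05). Over 23 alternative settings it stayed called, at 1.65 to 2.17. Of its exon bases, 5.58% are shared with Chchd10 on the opposite strand, and the sources used here do not say whether the counting used strand.

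Mmp15 went the other way. It encodes the membrane-type protease MT2-MMP, which is anchored at the cell surface. Mmp15 (chromosome 8, 95352268 to 95375080) stood at 2.21, 1.98, 1.61 and 2.39 FPKM in Cul3AKO1 to Cul3AKO4, against 5.36, 3.75, 4.92 and 3.27 FPKM in WT1 to WT4. The groups did not overlap, and WT4, the lowest WT library, was nearest to the Cul3AKO-labelled range. With means of 2.05 ± 0.334 FPKM in the Cul3AKO-labelled group and 4.33 ± 0.979 FPKM in WT, Mmp15 differed on the log2 scale by -0.91 ± 0.16 (limma adjusted p = 0.00383), called in all 23 alternatives. Endothelial markers moved with it: 8 of 10 were called lower, with a summed level of 174 to 206 FPKM in Cul3AKO-labelled fat and 261 to 365 FPKM in WT, and WT4 was again the lowest WT library. None of the 10 was at 0, and their part in the fall of Mmp15 was not tested. In bulk tissue, fewer cells of a type and less RNA per cell cannot be told apart.

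The crosslinking enzyme Lox rose, while its paralogs had no call. Lox (chromosome 18, 52516067 to 52529867) was at 45.7, 55.7, 44.0 and 30.8 FPKM in Cul3AKO1 to Cul3AKO4, against 17.1, 21.4, 19.4 and 23.7 FPKM in WT1 to WT4. No WT library reached the lowest Cul3AKO-labelled one. Its means of 44.1 ± 10.3 FPKM in the Cul3AKO-labelled group and 20.4 ± 2.81 FPKM in WT gave a ratio of 2.16 and a log2 fold change of 1.07 ± 0.18 (limma adjusted p = 0.00292). Lox kept its call in all 23 alternatives, at 0.95 to 1.36. Fibroblast and progenitor markers, read beside it, summed to 1418 to 1644 FPKM in Cul3AKO-labelled fat and 1284 to 2027 FPKM in WT fat, with 1 of 10 called higher, 2 lower and none at 0. Most of each sum was Gsn, at 1064 to 1283 FPKM in Cul3AKO-labelled fat and 973 to 1613 FPKM in WT fat. The part of these markers in the level of Lox was not tested.

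Loxl1, which acts on elastic fibres, overlapped fully between the groups: 33.8, 30.9, 26.1 and 18.2 FPKM in Cul3AKO1 to Cul3AKO4, against 18.5, 24.9, 24.3 and 33.8 FPKM in WT1 to WT4 (log2 fold change 0.10 ± 0.23, limma adjusted p = 0.769). Loxl2 averaged 5.68 ± 1.04 and 8.09 ± 2.53 FPKM in the Cul3AKO-labelled and WT groups, Loxl3 2.11 ± 0.284 and 2.52 ± 0.459 FPKM, and Loxl4 0.892 ± 0.267 and 1.30 ± 0.307 FPKM, with adjusted p of 0.130 to 0.264. Loxl2 alone of these passed in a fit without WT1 and WT2 (log2 fold change -0.76, adjusted p = 0.0455, with 0.0455 to 0.524 over all alternatives). Within a library, the level of Lox was 1.07, 1.35, 1.29 and 1.22 times the summed level of Loxl1 to Loxl4 in Cul3AKO1 to Cul3AKO4, and 0.623, 0.617, 0.524 and 0.474 times in WT1 to WT4. This ratio within a library does not depend on how libraries are scaled. Lox was thus the larger part of the family's RNA in each Cul3AKO-labelled library and the smaller part in each WT library.

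**Figure D2:**
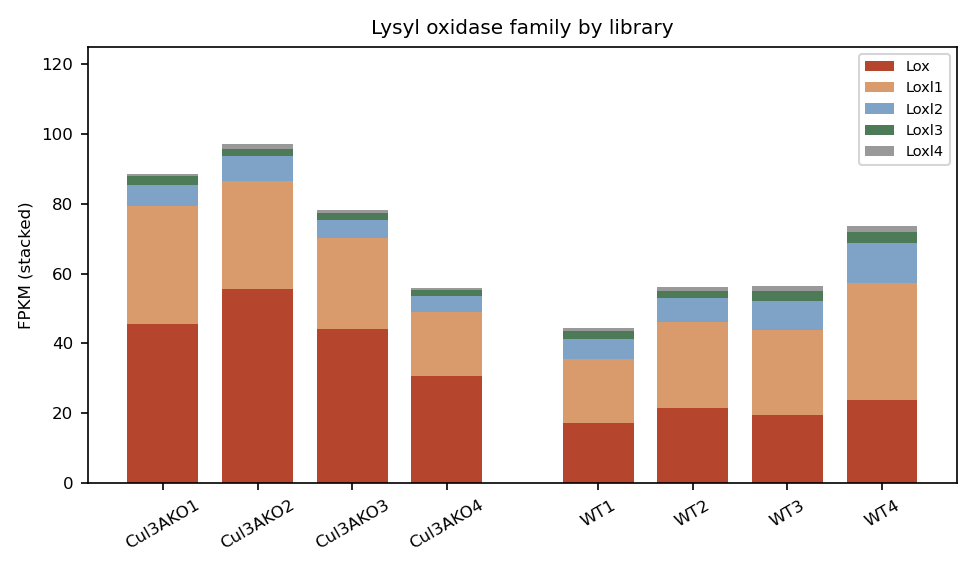
Stacked FPKM of the 5 lysyl oxidase genes in each library, Cul3AKO-labelled libraries on the left and WT libraries on the right. The Lox segment is 30.8 to 55.7 FPKM in the Cul3AKO-labelled libraries and 17.1 to 23.7 FPKM in WT, while the Loxl1 segments span 18.2 to 33.8 FPKM and 18.5 to 33.8 FPKM.

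Among the ADAMTS proteases, Adamts6 rose most. Adamts6 is a paralog of Adamts10, and both are linked to fibrillin microfibrils. Adamts6 (chromosome 13, 104287835 to 104496695) was at 2.06, 1.63, 2.56 and 2.69 FPKM in Cul3AKO1 to Cul3AKO4, against 0.503, 0.814, 0.744 and 0.746 FPKM in WT1 to WT4. The lowest Cul3AKO-labelled library, at 1.63 FPKM, lay well above the highest WT library, at 0.814 FPKM. Its ratio of means was 3.19 and its log2 fold change 1.18 ± 0.15 (limma adjusted p = 0.000912), called in all 23 alternatives. Adamts10 was at 14.2 ± 0.545 FPKM in the Cul3AKO-labelled group and 13.5 ± 0.566 FPKM in WT (SD, n = 4 each; log2 fold change 0.07 ± 0.06, adjusted p = 0.418). The paralog with the lower level was thus the one that changed.

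Adamts7 and Adamts12 encode a pair of proteases that cut cartilage oligomeric matrix protein. Adamts7 (chromosome 9, 90163069 to 90208071) was at 2.15, 2.10, 2.66 and 2.30 FPKM in Cul3AKO1 to Cul3AKO4, against 1.57, 1.57, 1.77 and 1.33 FPKM in WT1 to WT4, with no overlap. It rose by 0.44 ± 0.10 on the log2 scale (limma adjusted p = 0.0127), and missed the threshold once WT1 and WT2 were left out (adjusted p = 0.0868, with 0.00238 to 0.0868 over all alternatives). Adamts12 overlapped, at 3.66 to 4.88 FPKM in Cul3AKO-labelled fat and 3.75 to 4.74 FPKM in WT fat (adjusted p = 0.704).

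Of the proteoglycan-cutting ADAMTS enzymes, only Adamts1 passed. Adamts1 (chromosome 16, 85793827 to 85803113), which cuts versican, was at 12.3, 14.0, 13.2 and 10.5 FPKM in Cul3AKO1 to Cul3AKO4, against 16.5, 19.4, 17.7 and 16.9 FPKM in WT1 to WT4. The groups did not overlap, and the mean was 29.2% lower in the Cul3AKO-labelled group. On the log2 scale this was -0.49 ± 0.10 (limma adjusted p = 0.00788). It was -0.23 and -0.25 with no call when libraries were scaled to a sum of 1000000 or to the reads in listed genes (adjusted p = 0.149 and 0.0926), scalings that moved the median of all genes to 0.24 and 0.20. Without WT1 and WT2 the call was also lost (adjusted p = 0.0629), and over all alternatives the adjusted p ran from 0.00472 to 0.149.

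Adamts5, the neighbour of Adamts1 on chromosome 16 and the most abundant ADAMTS gene, was at 26.1, 35.1, 34.7 and 28.1 FPKM in Cul3AKO1 to Cul3AKO4, against 37.4, 33.0, 47.4 and 41.9 FPKM in WT1 to WT4. The ranges overlapped by way of WT2, and the test missed the threshold (log2 fold change -0.36 ± 0.14, adjusted p = 0.0847). Adamts4, Adamts9 and Adamts15, of the same group of proteoglycanases, averaged 0.855 and 1.19 FPKM, 3.22 and 3.53 FPKM, and 2.68 and 2.25 FPKM in the Cul3AKO-labelled and WT groups, with adjusted p of 0.268 to 0.618. Adamts15 passed as higher without WT4 (0.42, adjusted p = 0.0412, with 0.0412 to 0.828 over all alternatives), and Adamts9 as lower without Cul3AKO4 and WT4 (-0.33, adjusted p = 0.0314, with 0.0314 to 0.963). Adamts9 shares 9.18% of its exon bases with an antisense locus. Adamts8 was low, at 0.126 to 0.298 FPKM in Cul3AKO-labelled fat and 0.085 to 0.359 FPKM in WT fat.

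The procollagen N-propeptidases, which cut the amino-terminal extension from fibrillar procollagens, gave no call. Adamts2 was the most abundant, with 21.3, 21.8, 18.5 and 19.5 FPKM in Cul3AKO1 to Cul3AKO4 and 19.3, 24.2, 21.6 and 24.1 FPKM in WT1 to WT4 (log2 fold change -0.13 ± 0.10, limma adjusted p = 0.324). Adamts14 did not overlap, at 1.27 to 1.59 FPKM in Cul3AKO-labelled fat and 1.71 to 2.16 FPKM in WT fat, but missed the threshold (adjusted p = 0.0740) and passed with quantile normalization (adjusted p = 0.0359). Adamts3 averaged 0.146 ± 0.0308 FPKM in the Cul3AKO-labelled group and 0.202 ± 0.0824 FPKM in WT.

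Of the protease-like ADAMTSL genes, only Adamtsl2 passed. Its product binds fibrillin and latent TGF-beta binding protein. Adamtsl2 (chromosome 2, 27079379 to 27108981) was at 2.67, 2.49, 1.65 and 3.51 FPKM in Cul3AKO1 to Cul3AKO4, against 1.55, 0.742, 1.30 and 0.921 FPKM in WT1 to WT4. The gap between the groups was narrow, from 1.55 FPKM in WT1 to 1.65 FPKM in Cul3AKO3. Its rise on the log2 scale was 0.91 ± 0.22 (limma adjusted p = 0.0144). The call was lost without WT1 and WT2 (adjusted p = 0.0615) and without Cul3AKO4 and WT4 (adjusted p = 0.0511), within a range of 0.00395 to 0.0615 over all alternatives.

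Adamtsl1 had means of 0.914 ± 0.264 FPKM in the Cul3AKO-labelled group and 0.482 ± 0.288 FPKM in WT (adjusted p = 0.0994). It met the 0.5 FPKM minimum for testing only through the Cul3AKO-labelled group. The level in WT4, 0.854 FPKM, lay among the Cul3AKO-labelled values of 0.715 to 1.28 FPKM, and without WT4 the gene passed (adjusted p = 0.0319, with 0.0291 to 0.548 over all alternatives). Adamtsl3, Adamtsl4 and Adamtsl5 averaged 0.616, 6.98 and 3.16 FPKM in the Cul3AKO-labelled group and 0.880, 6.81 and 3.39 FPKM in WT, with adjusted p of 0.184 to 0.756.

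**Figure D3:**
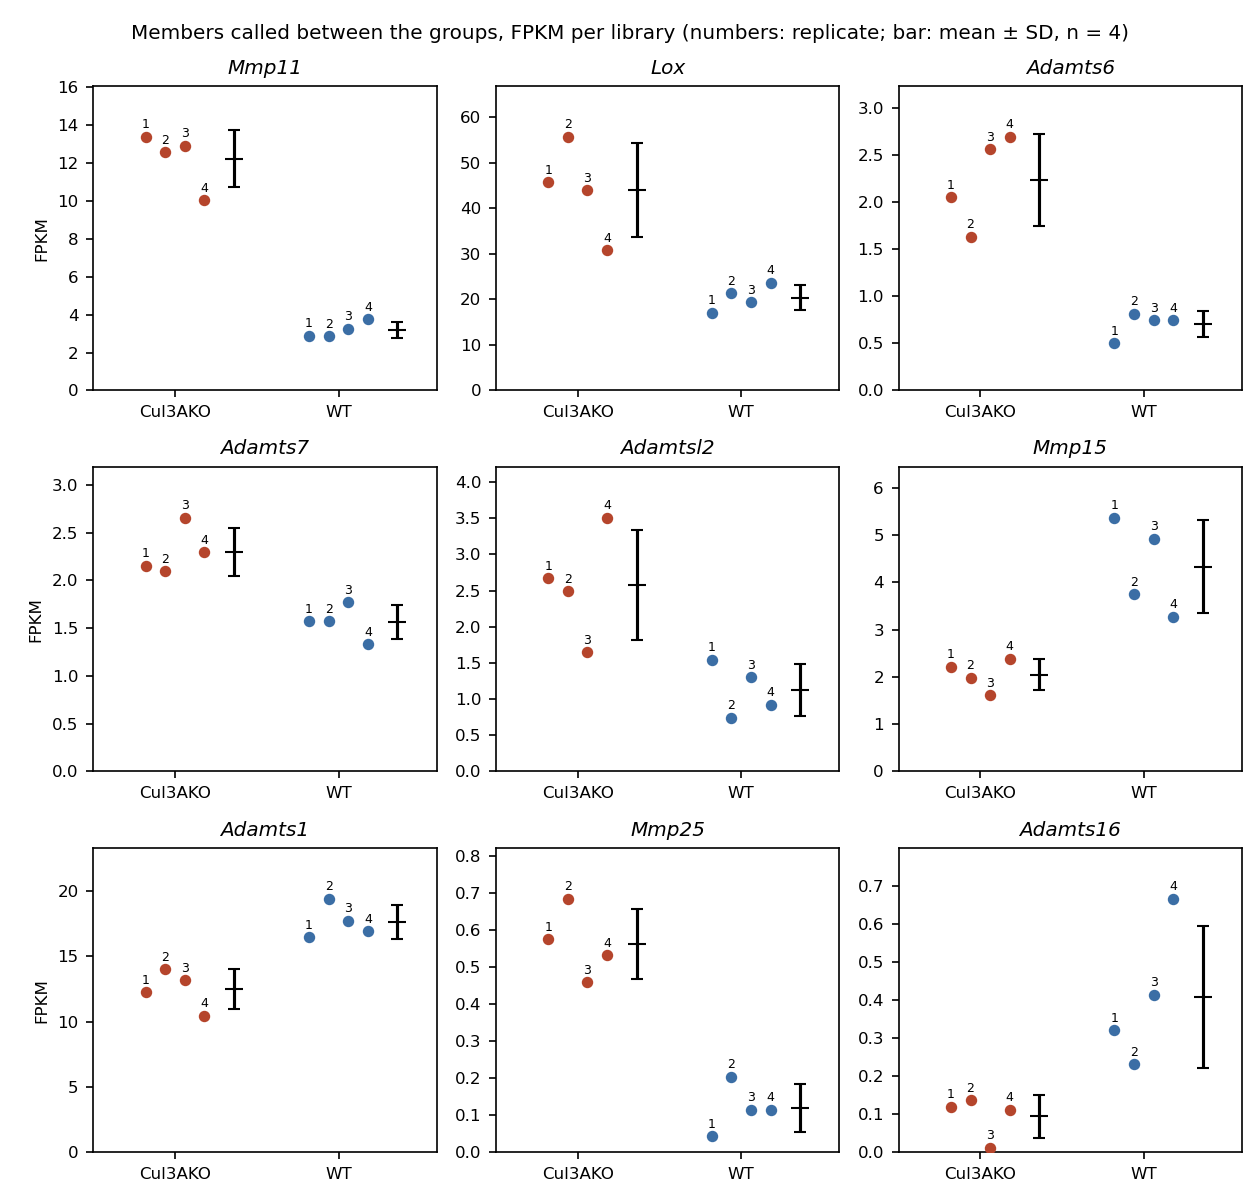
FPKM of 9 members in each library, Cul3AKO-labelled on the left and WT on the right, with the replicate number beside each point and the mean ± SD (n = 4) as a bar. In each panel the groups do not overlap, with the narrowest gap relative to its axis for Adamtsl2. Mmp25 and Adamts16, the last 2 panels, were called among genes of at least 0.1 FPKM, a minimum that Adamts16 met only through WT.

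Of the 6 members under 0.5 FPKM, a fit on the 19771 genes with a mean of at least 0.1 FPKM called 1 higher and 1 lower, where 9.09% and 12.9% of all these genes were called. Mmp25, which encodes the membrane-anchored leukolysin, had 0.576, 0.685, 0.459 and 0.533 FPKM in Cul3AKO1 to Cul3AKO4, against 0.0444, 0.205, 0.115 and 0.115 FPKM in WT1 to WT4. These values rest on 89, 89, 59 and 70 reads in Cul3AKO1 to Cul3AKO4 and on 6, 26, 14 and 15 reads in WT1 to WT4. The ratio of means was 4.70, above that of any of the 7 members called, and the log2 fold change, which the added 0.5 shrinks at this level, came to 0.78 ± 0.13 (limma adjusted p = 0.00355).

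Adamts16 had 0.120, 0.137, 0.0121 and 0.112 FPKM in Cul3AKO1 to Cul3AKO4, against 0.321, 0.232, 0.415 and 0.666 FPKM in WT1 to WT4. The groups did not overlap, with 2 to 24 reads in the Cul3AKO-labelled group and 38 to 112 reads in WT, and the change on the log2 scale was -0.59 ± 0.16 (limma adjusted p = 0.0334). Adamts16 met the 0.1 FPKM minimum only through WT (mean 0.409 FPKM), as the Cul3AKO-labelled mean was 0.0955 FPKM. Mmp17, Adamts3, Adamts8 and Adamts19 had no call in this fit (adjusted p = 0.410 to 0.922). Mmp17, a membrane-anchored protease, averaged 0.377 FPKM in the Cul3AKO-labelled group and 0.287 FPKM in WT, and Adamts19 averaged 0.110 and 0.142 FPKM.

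Leukolysin and the collagenase Mmp8 are known from neutrophils, so the neutrophil markers were read beside them. Of the 7 neutrophil markers in the table, 4 were under 1 FPKM in every library (Camp, Ngp, Retnlg and Mpo), and 2 of the 3 tested were called higher (S100a8 and Csf3r). The third, S100a9, leaned the other way without a call (0.618 FPKM in the Cul3AKO-labelled group and 0.776 FPKM in WT, limma adjusted p = 0.642). The summed level of the 7 was 13.4 to 20.9 FPKM in Cul3AKO-labelled fat and 6.997 to 9.89 FPKM in WT. Most of it was S100a8, at 8.69 to 18.3 FPKM and 5.22 to 7.46 FPKM. Mast cell markers also moved, with 4 of 5 tested called higher and sums of 26.0 to 31.3 FPKM in Cul3AKO-labelled fat against 3.77 to 7.13 FPKM in WT. Lymphocyte markers summed to 4.25 to 9.54 FPKM in Cul3AKO-labelled fat and 1.70 to 2.84 FPKM in WT. Of these 8 markers, 5 were under 1 FPKM in every library, and the 1 tested was called higher. The part of any of these cell types in the level of Mmp25 was not tested.

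A run of MMP genes lies on chromosome 9 between 7272514 and 7699585 (427 kb, build mm10). The expression table lists 8 of its MMP genes, and 5 are members: Mmp13, Mmp12, Mmp3, Mmp27 and Mmp7. Their promoters show how neighbours in 1 cluster can differ in sequence. RefSeq windows of build GRCm38.p6, from 250 bases before to 50 bases after the start site, were at hand for 26 of the 44 members (29 windows). The AP-1 motif TGACTCA, the binding sequence of Fos and Jun, was sought on both strands. It was found in 1 window each of Mmp13, Mmp12, Mmp3 and Mmp7, all in this cluster, and in no other member window, where 5.20% of all 32851 promoter windows hold it. Its first letter stood at -35 in Mmp13, -44 in Mmp12, -46 in Mmp3 and -63 in Mmp7, counted from the start site at 0.

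Shown for the cluster are the windows of Mmp13 (chr9:7272264-7272563), Mmp12 (chr9:7347124-7347423, the downstream of 2 annotated starts), Mmp3 (chr9:7445572-7445871) and Mmp27 (chr9:7571146-7571445), which lacks the motif. Mmp11 (chr10:75932453-75932752, minus strand), the member with the largest change, is set beside them and lacks it too. All are written 5′ to 3′ on the gene's strand, with the AP-1 letters of either strand in capitals.
Mmp13: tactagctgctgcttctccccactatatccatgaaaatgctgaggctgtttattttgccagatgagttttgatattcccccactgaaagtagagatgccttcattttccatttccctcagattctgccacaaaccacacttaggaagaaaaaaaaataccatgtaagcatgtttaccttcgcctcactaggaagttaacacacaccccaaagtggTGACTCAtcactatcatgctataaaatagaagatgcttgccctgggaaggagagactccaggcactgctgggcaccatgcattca
Mmp12: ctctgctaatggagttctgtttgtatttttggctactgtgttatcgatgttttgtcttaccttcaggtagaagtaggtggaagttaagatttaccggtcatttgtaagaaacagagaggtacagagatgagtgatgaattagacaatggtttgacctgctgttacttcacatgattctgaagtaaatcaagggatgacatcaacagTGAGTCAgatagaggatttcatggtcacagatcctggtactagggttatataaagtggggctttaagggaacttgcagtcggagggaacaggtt
Mmp3: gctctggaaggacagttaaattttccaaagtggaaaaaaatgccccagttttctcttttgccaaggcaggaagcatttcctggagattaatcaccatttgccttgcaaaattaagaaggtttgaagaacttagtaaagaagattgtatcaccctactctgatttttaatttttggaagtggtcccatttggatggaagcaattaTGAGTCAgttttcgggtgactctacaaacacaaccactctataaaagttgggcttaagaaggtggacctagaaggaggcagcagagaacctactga
Mmp27: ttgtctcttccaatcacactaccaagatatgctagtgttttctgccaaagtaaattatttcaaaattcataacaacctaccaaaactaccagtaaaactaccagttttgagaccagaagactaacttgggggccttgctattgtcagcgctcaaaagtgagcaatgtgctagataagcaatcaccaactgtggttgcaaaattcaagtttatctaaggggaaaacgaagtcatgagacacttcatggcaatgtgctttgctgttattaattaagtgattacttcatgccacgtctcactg
Mmp11: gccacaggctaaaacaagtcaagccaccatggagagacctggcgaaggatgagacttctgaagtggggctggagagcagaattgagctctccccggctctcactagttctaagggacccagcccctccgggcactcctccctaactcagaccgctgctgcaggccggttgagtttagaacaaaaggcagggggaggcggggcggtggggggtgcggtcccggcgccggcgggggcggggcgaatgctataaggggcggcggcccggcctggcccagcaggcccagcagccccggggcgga
A match is a string of letters in this window and says nothing of binding. The core of the antioxidant response element, TGACNNNGC, which NRF2 binds with a small MAF protein, was also sought on both strands. It was found in a window of Adamts2, Adamtsl5, Mmp15, Timp2 and Timp4 (5 of 29 windows), and in 12.4% of all windows, and no member window held both motifs. Of these 5 genes only Mmp15 was called, and it was lower.

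The cluster genes with the AP-1 letters did not separate the groups. Mmp12, the macrophage elastase, was at 11.9, 8.63, 7.76 and 3.56 FPKM in Cul3AKO1 to Cul3AKO4, against 16.4, 5.601, 9.13 and 36.1 FPKM in WT1 to WT4. The Cul3AKO-labelled values lay inside the WT range except for the lowest, and WT4 stood 3.48 times above the mean of the other WT libraries (log2 fold change -0.82 ± 0.55, limma adjusted p = 0.288). Mmp3, stromelysin 1, was at 1.28, 0.544, 0.802 and 0.269 FPKM in Cul3AKO1 to Cul3AKO4, against 2.05, 0.881, 0.993 and 3.97 FPKM in WT1 to WT4 (-0.92 ± 0.40, adjusted p = 0.116). Mmp13, a collagenase, was at 0.604 to 0.693 FPKM in Cul3AKO-labelled fat and 0.235 to 0.974 FPKM in WT fat (adjusted p = 0.488). For Mmp12, Mmp3 and Mmp13, WT4 was the highest WT library and Cul3AKO4 the lowest Cul3AKO-labelled one.

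Mmp27 and its neighbour Mmp8 were both low. Mmp27 was at 0.699, 1.62, 0.598 and 0.585 FPKM in Cul3AKO1 to Cul3AKO4, against 0.160, 0.416, 0.138 and 0.497 FPKM in WT1 to WT4. The ranges did not overlap, but Cul3AKO2 lay far above the rest and the test missed the threshold (0.75 ± 0.26, limma adjusted p = 0.0620). The gene met the 0.5 FPKM minimum for testing only through the Cul3AKO-labelled group (mean 0.877 FPKM, against 0.303 FPKM in WT). Mmp27 was called in 5 alternatives, among them the fit without WT4 (adjusted p = 0.0495, with 0.0251 to 0.212 over all alternatives). Mmp8, under the level minimum, had 12, 19, 12 and 3 reads in Cul3AKO1 to Cul3AKO4 and 2, 0, 0 and 1 reads in WT1 to WT4. Mmp7, matrilysin, was at 10.3 FPKM (273 reads) in Cul3AKO4 and had at most 1 read in each other library, so its mean describes no group (adjusted p = 0.396).

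The gelatinase Mmp2 and its activator Mmp14 (MT1-MMP) were among the most abundant proteases. Mmp2 was at 23.0, 22.5, 19.3 and 16.7 FPKM in Cul3AKO1 to Cul3AKO4, against 14.7, 14.8, 14.9 and 33.9 FPKM in WT1 to WT4. All Cul3AKO-labelled libraries were above WT1 to WT3 and below WT4, and with all libraries Mmp2 had no call (log2 fold change 0.15 ± 0.27, limma adjusted p = 0.704). Without WT4 it was called higher (0.44, adjusted p = 0.0254), and without WT4 and Cul3AKO4 as well (0.53, adjusted p = 0.00495), while without WT1 and WT2 the sign turned (-0.15, adjusted p = 0.783). The adjusted p of Mmp2 spanned 0.00495 to 0.927 across the alternatives. Mmp14 was at 7.63 to 11.5 FPKM in Cul3AKO-labelled fat and 8.26 to 8.84 FPKM in WT1 to WT3, with 15.5 FPKM in WT4 (adjusted p = 0.938). Without Cul3AKO4 and WT4 it was called higher (0.29, adjusted p = 0.0397, with 0.0397 to 0.970 over all alternatives). The other gelatinase gene, Mmp9, was low, at 0.620 ± 0.153 FPKM in the Cul3AKO-labelled group and 0.704 ± 0.295 FPKM in WT.

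The remaining MMPs had no call. Mmp19 averaged 11.9 ± 1.89 FPKM in the Cul3AKO-labelled group and 15.4 ± 4.42 FPKM in WT (adjusted p = 0.212), with WT4 highest at 21.8 FPKM. Of its exon bases, 22.3% are shared with Tmem198b on the opposite strand. Mmp23 averaged 6.75 ± 0.956 and 6.57 ± 1.68 FPKM (adjusted p = 0.823). Mmp28, epilysin, ran against the pattern of WT4, which at 8.62 FPKM was the lowest WT library. It was at 8.70 to 11.1 FPKM in Cul3AKO-labelled fat and 11.6 to 13.0 FPKM in WT1 to WT3, and passed as lower without WT4 (-0.37, limma adjusted p = 0.0256) and without WT4 and Cul3AKO4 (-0.44, adjusted p = 0.00562, with 0.00562 to 0.975 over all alternatives).

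None of the 4 inhibitors was called by limma, with 0 calls also at the 0.1 FPKM minimum. Only Timp3 had an unadjusted p under 0.05 (0.0177), and it was the 1 inhibitor called by voom on recovered reads. Timp2, which holds pro-MMP2 for activation by MT1-MMP, was the most abundant member, at 107, 115, 111 and 80.8 FPKM in Cul3AKO1 to Cul3AKO4, against 66.4, 79.3, 82.2 and 122 FPKM in WT1 to WT4. Cul3AKO1 to Cul3AKO3 lay between WT3 and WT4 (log2 fold change 0.26 ± 0.19, limma adjusted p = 0.324). Timp1, an inhibitor often induced in inflamed tissue, was at 15.8, 16.3, 11.7 and 5.73 FPKM in Cul3AKO1 to Cul3AKO4, against 10.2, 7.004, 5.404 and 18.05 FPKM in WT1 to WT4 (0.31 ± 0.41, adjusted p = 0.597). Without Cul3AKO4 and WT4, Timp1 and Timp2 were called higher (0.94 and 0.55, adjusted p = 0.0236 and 0.00799). Over all alternatives their adjusted p ran from 0.0236 to 0.914 and from 0.00799 to 0.934.

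Timp3, which is held in the matrix and also inhibits ADAMTS proteases, had separate ranges: 21.3, 21.2, 22.7 and 23.0 FPKM in Cul3AKO1 to Cul3AKO4, against 24.4, 27.6, 33.9 and 25.1 FPKM in WT1 to WT4. The lowest WT library, WT1, lay above every Cul3AKO-labelled one, but the test missed the threshold (-0.31 ± 0.11, limma adjusted p = 0.0555). It passed without WT4 (adjusted p = 0.0462) and with voom weights on recovered reads (0.0456), in a span of 0.0456 to 0.781. Syn3 covers 21.3% of its exon bases on the opposite strand. Timp4 was at 26.9, 29.3, 29.4 and 37.8 FPKM in Cul3AKO1 to Cul3AKO4, against 31.0, 46.5, 43.5 and 23.7 FPKM in WT1 to WT4, with wide overlap (adjusted p = 0.532). Here the order was turned, with WT4 the lowest WT library and Cul3AKO4 the highest Cul3AKO-labelled one.

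A shared order of libraries ran through the members. WT4 was the highest WT library and Cul3AKO4 the lowest Cul3AKO-labelled library together for 17 of the 38 tested members (44.7%), against 14.0% of all tested genes. These were 9 of 13 tested MMPs, 2 of 4 TIMPs, 1 of 11 ADAMTS, 1 of 5 ADAMTSL and 4 of 5 lysyl oxidases. All 12 macrophage markers, from the receptor genes Csf1r and Fcgr1 to the lysosomal gene Cd68, shared this order, and none was at 0 in any library. The order was not particular to them. The matrix genes Col1a1, Col1a2 and Fn1 had it too, while Col5a1, Col4a1 and Col4a2 did not. The sum of 10 adipocyte markers had the opposite order, with Cul3AKO4 highest of its group (2812 FPKM) and WT4 lowest of WT (3842 FPKM). The part of macrophages in the levels of the members was not tested. The macrophage marker sum was 1693 FPKM in Cul3AKO1 and 1568 FPKM in WT4, with Lyz2 its largest part (729 and 785 FPKM). Single markers differed between these libraries in both directions, with Gpnmb at 12.8 and 82.4 FPKM and C1qa at 291 and 146 FPKM. In the same libraries Mmp12 was 11.9 and 36.1 FPKM, Mmp3 1.28 and 3.97 FPKM, and Mmp2 23.0 and 33.9 FPKM. Without WT4, 9 members were called higher and 4 lower, beside 13.4% and 19.4% of all genes in that fit. Without both libraries 8 and 4 were called, beside 14% and 18.7% of all genes.

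**Figure D4:**
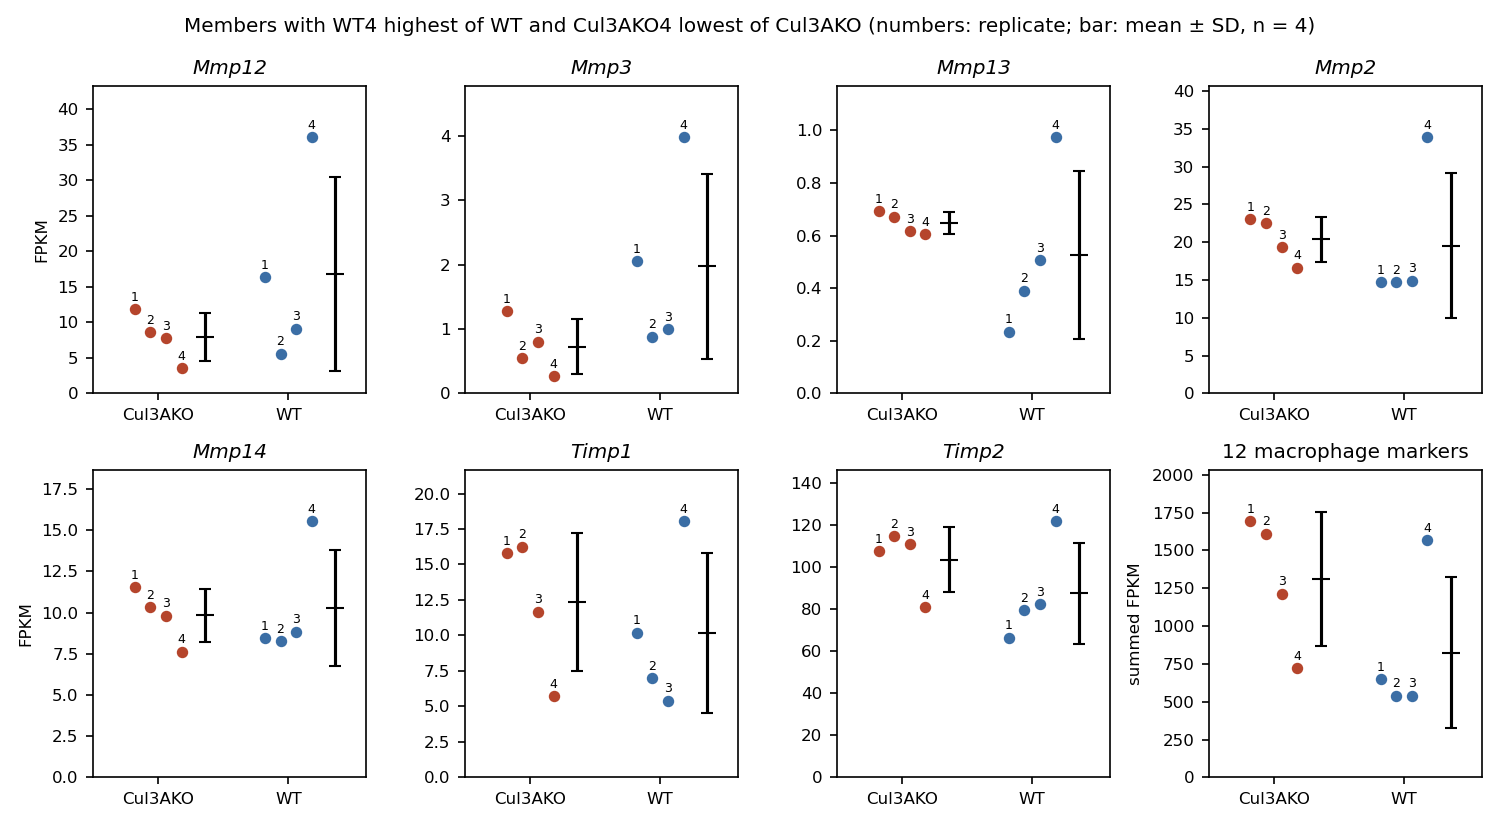
FPKM per library of 7 members that are highest in WT4 among WT and lowest in Cul3AKO4 among the Cul3AKO-labelled libraries, with the summed FPKM of 12 macrophage markers in the last panel; Cul3AKO-labelled points are on the left, numbers are replicates and bars are the mean ± SD (n = 4). WT4 reaches 36.1 FPKM for Mmp12 and 33.9 FPKM for Mmp2, and the macrophage sum is 1568 FPKM in WT4 and 723 FPKM in Cul3AKO4.

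Summed over family members, MMP levels were 94.5, 90.8, 82.9 and 79.9 FPKM in Cul3AKO1 to Cul3AKO4 and 82.8, 71.1, 73.6 and 138 FPKM in WT1 to WT4. TIMP sums were 147 to 181 FPKM in Cul3AKO-labelled fat and 132 to 189 FPKM in WT fat, so MMP over TIMP was 0.475 to 0.551 and 0.443 to 0.734. The TIMP sum exceeded the MMP sum in every library. ADAMTS sums were 90.5 to 101.3 FPKM in Cul3AKO-labelled fat and 101.6 to 118 FPKM in WT fat, which nearly met. ADAMTSL sums lay the other way round, at 13.7 to 15.0 FPKM in Cul3AKO-labelled fat and 11.8 to 13.4 FPKM in WT fat. Both sums were read on the deposited scale only. Scalings that raise Cul3AKO-labelled levels relative to WT would shift them.

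Beside the families, 8 lists of related genes were read from the same fit, and of 83 tested genes 8 were called higher and 25 lower. That is 9.64% and 30.1%, against 11.7% and 18.6% of all tested genes. The balance depends on scaling: scaled to a sum of 1000000 or to the reads in listed genes, 17 were called higher and 14 lower, where 29.3% and 8.26%, or 29.1% and 8.8%, of all genes were called. Of 13 fibrillar and basement membrane genes, 7 fell and none rose. Col5a1 averaged 21.96 ± 2.99 FPKM in the Cul3AKO-labelled group and 47.2 ± 4.05 FPKM in WT (log2 fold change -1.09 ± 0.11, limma adjusted p = 0.000313). The basement membrane genes Nid2, Col4a1 and Col4a2 fell by 0.76, 0.63 and 0.65 on the log2 scale, where the last pair lost their calls without WT1 and WT2 (adjusted p = 0.0707 and 0.0951). Of 6 proteoglycan genes tested, Bgn (biglycan) rose, at 202 ± 11.9 FPKM in the Cul3AKO-labelled group and 79.5 ± 26.8 FPKM in WT (1.40 ± 0.21), and Ncan (neurocan) fell, at 0.658 ± 0.396 and 4.04 ± 1.11 FPKM.

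Of 15 tested elastic fibre and microfibril genes, 4 fell and 2 rose, shares of 26.7% and 13.3% that lie near those of all genes. Eln (elastin) fell to 7.46 ± 0.563 FPKM in the Cul3AKO-labelled group, against 15.4 ± 4.24 FPKM in WT (log2 fold change -0.96 ± 0.17, limma adjusted p = 0.00394). Mfap4 fell by 1.08, while Fbln5 (fibulin 5, which guides elastin assembly) rose by 0.47 and Ltbp2 by 0.66. Ltbp2 lost its call without Cul3AKO2, WT1 or WT3 (adjusted p = 0.0511 to 0.0546), and both Mfap4 and Ltbp2 lost it without WT1 and WT2 (adjusted p = 0.110 and 0.123). In procollagen processing, 4 of 17 tested fell and 2 rose, again near the shares of all genes. The collagen chaperone gene Serpinh1 was at 95.3 ± 11.5 FPKM in the Cul3AKO-labelled group and 321 ± 50.2 FPKM in WT (-1.74 ± 0.14), and Pcolce2, an enhancer of the procollagen C-proteinase, at 1.81 ± 0.782 and 19.4 ± 6.04 FPKM (-3.13 ± 0.28). Its paralog Pcolce rose, with overlapping ranges, at 34.8 ± 8.74 and 17.9 ± 5.17 FPKM (0.95 ± 0.23, limma adjusted p = 0.0150). The prolyl 3-hydroxylase gene P3h1 fell by 0.70 and its paralog P3h2 rose by 0.95, and P3h2 lost its call without WT1 and WT2 (adjusted p = 0.0770).

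Of 8 other matrix-cleaving serine and cysteine proteases, Htra1, Fap and Ctsl fell and Htra3 rose. That is 37.5% lower and 12.5% higher, beside 18.6% and 11.7% of all tested genes. Htra1 was at 47.2 ± 4.64 FPKM in the Cul3AKO-labelled group and 87.2 ± 4.43 FPKM in WT (log2 fold change -0.88 ± 0.09, limma adjusted p = 0.000312), and its paralog Htra3 at 139 ± 7.26 and 92.2 ± 7.40 FPKM (0.59 ± 0.09, adjusted p = 0.00204). Fap fell by 0.48 and lost its call in both sum-based scalings (adjusted p = 0.118 and 0.0772), and the lysosomal protease gene Ctsl fell by 0.78, without a call in 6 alternatives (adjusted p = 0.0537 to 0.151). Of 8 membrane-bound ADAM genes, 3 fell, which is 37.5%, beside 18.6% of all tested genes. Adam12 fell by 0.996 on the log2 scale (2.18 ± 0.527 FPKM in the Cul3AKO-labelled group, 4.84 ± 0.979 FPKM in WT). Adam15 and Adam33 fell by 0.39 and 0.36 and lost their calls in 11 and 15 alternatives, and the ranges of Adam33 overlapped.

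In plasminogen activation, 2 of 8 tested genes fell, a share of 25% that lies near the 18.6% of all tested genes. They were Anxa2 (-1.10 ± 0.12, limma adjusted p = 0.000481) and S100a10 (-0.53 ± 0.12), whose products together bind plasminogen at the cell surface. S100a10 lost its call in 4 alternatives (adjusted p = 0.0925 to 0.105). Of 8 tested genes that activate, inhibit or clear MMPs, the convertase gene Pcsk5 rose by 0.51, the endocytic receptor gene Lrp1 rose by 0.56 and the Kunitz inhibitor gene Tfpi2 fell by 0.86. That is 25% higher and 12.5% lower, beside 11.7% and 18.6% of all tested genes. The ranges of Lrp1 overlapped, at 57.7 to 82.4 FPKM in Cul3AKO-labelled fat and 41.9 to 63.7 FPKM in WT fat. Lrp1 lost its call in 9 alternatives (adjusted p = 0.0534 to 0.231) and Tfpi2 in 3 (adjusted p = 0.0509 to 0.0706).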

How the data were processed

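The authors deposited 1 table of FPKM values for 28295 genes, with a column for each of 8 libraries. Per the submitters' processing notes, HISAT2 2.0.5, featureCounts and build mm10 were used. The annotation release and the strand setting are not given in the sources used here. FPKM are not counts, so log2(FPKM + 0.5) was fitted with limma 3.58.1 (R 4.3.3; trend, robust, two-sided, no covariate), Cul3AKO-labelled against WT, over the 14400 genes with a mean of at least 0.5 FPKM, with Benjamini-Hochberg adjustment over all of them. Fold changes on this scale understate low genes. Errors beside means are SDs over 4 libraries, and those beside log2 fold changes are moderated standard errors. Each library was taken as 1 mouse, which the labels do not state, so p-values measure the spread between these libraries.

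Reads were recovered from FPKM steps and GENCODE M21 exon lengths (97.9% of values between 0.5 and 200 reads lay within 0.02 of a whole number). They give depth and were the input of the voom fit. The read number of a single library shows its counting error, not the spread between libraries. Coordinates are those of GENCODE M21, build mm10, 1-based.

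The members and the lists were chosen with earlier results of these data known. All 44 members are named. Of each related list, up to 4 called genes with the smallest adjusted p are named. Pcolce, Col1a1, Col1a2 and Fn1 are named in addition. Alternatives were 19 planned and 4 chosen after the data were seen (scaling to reads in listed genes, voom on recovered reads, and fits without WT1 and WT2 or without Cul3AKO4 and WT4). The fit was tested on simulated data. Markers of 11 cell types and tissues were read: adipocyte (9 of 10 called lower), fibroblast and progenitor (1 higher and 2 lower of 10), smooth muscle (2 higher and 1 lower of 8), mesothelial (1 higher of 8 tested), lymphocyte (1 higher of 1 tested), macrophage (3 higher of 12), liver (3 lower of 8) and pancreas (1 lower of 1 tested). Endothelial, neutrophil and mast cell counts stand in the text. Tables and plots came from Python 3.11.15, pandas 2.3.3, numpy 2.4.6 and matplotlib 3.10.9.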

Additional observations from a re-analysis of the deposited data

Results flagged for a closer look

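In 88 groups of 4 libraries (44 members in each genotype), 8 held a library far from the other libraries of its group, where chance gives about 1 group in 20. Mmp2 was at 33.9 FPKM in WT4, with the other WT libraries at 14.7 to 14.9 FPKM. Mmp14 was at 15.5 FPKM in WT4, with the others at 8.26 to 8.84 FPKM. In Cul3AKO4, Adamts12 was high at 4.88 FPKM (others of its group 3.66 to 3.84 FPKM), Mmp28 was high at 11.1 FPKM (8.70 to 9.07 FPKM) and Adamtsl5 was low at 2.04 FPKM (3.39 to 3.61 FPKM). Mmp27 was at 1.62 FPKM in Cul3AKO2, with the others at 0.585 to 0.699 FPKM. Mmp7 was at 10.3 FPKM in Cul3AKO4, with the others of its group at 0 to 0.0382 FPKM. The same gene was at 0.0391 FPKM in WT2, which is 1 read, and listed at 0 in the other WT libraries. A lone read beside values of 0 passes the cut-off by arithmetic. Of these 8 values, 4 came from Cul3AKO4 and 2 from WT4.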

How the results depend on the processing

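Mmp11, Adamts6, Lox and Mmp15 kept their direction and call in all 23 alternatives. Scaled to a sum of 1000000, 4226 genes were called higher and 1190 lower, 9 members higher and 1 lower, and 17 and 14 related genes, with a median over members of 0.18. Scaling by listed-gene reads gave 4197 and 1267 genes, 9 and 1 members, 17 and 14 related genes, and a median of 0.14. Both scalings added Mmp27, Adamtsl1, Adamts10 and Adamtsl4 to the higher calls and dropped Adamts1. Without WT1 and WT2 the calls were 729 and 1029 genes, 3 members higher, and 4 and 16 related genes. Without Cul3AKO4 and WT4 they were 2017 and 2700 genes (14% and 18.7%), 8 and 4 members, and 16 and 19 related genes. Array weights gave 2438 genes higher and 3376 lower out of 14400, beside 14 related genes higher and 26 lower out of 83. Voom on the whole reads recovered called 1819 genes higher and 2748 lower, with 6 and 3 members, adding Mmp27 and Timp3. With any 1 library omitted, 1100 to 1938 genes were called higher and 1862 to 2794 lower, 5 to 9 members higher and 2 to 4 lower, and the most members were called without WT4. Scaling by listed-gene reads divides by a share of 62.6% to 66.1% in Cul3AKO-labelled libraries and 74.1% to 78.7% in WT. By arithmetic this raises the Cul3AKO-labelled values relative to WT. Why the share differs between the groups, and the cause of the other shifts, was not tested.

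Members without a call changed sign in some alternatives. Scaled to a sum of 1000000, the log2 fold change was 0.20 for Adamts12, 0.14 for Adamts2, 0.15 for Adamts9, 0.15 for Adamtsl5, 0.025 for Loxl3, 0.25 for Mmp14, 0.018 for Mmp28, 0.14 for Mmp9 and 0.084 for Timp4. Scaling by listed-gene reads gave 0.17 for Adamts12, 0.11 for Adamts2, 0.12 for Adamts9, 0.12 for Adamtsl5, 0.00058 for Loxl3, 0.22 for Mmp14, 0.073 for Mmp9 and 0.059 for Timp4. Quantile normalization gave 0.035 for Adamts2, 0.075 for Mmp14 and 0.020 for Timp4, and median-of-ratios scaling 0.012 for Mmp14. Array weights gave 0.039 for Adamtsl5, 0.092 for Mmp14 and 0.0084 for Mmp9. Without WT1 and WT2 it was 0.018 for Adamts9, -0.11 for Loxl1, -0.087 for Mmp13, -0.15 for Mmp2 and -0.11 for Mmp23. Without Cul3AKO4 and WT4 it was -0.0041 for Adamtsl4, 0.17 for Adamtsl5, 0.29 for Mmp14 and 0.055 for Mmp9. With 1 library left out, values ran from -0.17 to 0.067 for Adamtsl5, -0.041 to 0.28 for Loxl1, -0.11 to 0.18 for Mmp14, -0.086 to 0.19 for Mmp23 and -0.26 to 0.021 for Mmp9.

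Replicate numbers are shared between the groups, but same-numbered libraries did not deviate together (correlations of their deviations across genes of -0.060, -0.13, 0.17 and -0.32). A replicate block gave 1113 genes higher and 1995 lower, and 5 and 2 members. Below about 1 FPKM, members rest on few reads (6 to 26 for Mmp25 in WT), which limits their precision. Of the 6 members under 0.5 FPKM, Mmp25 and Adamts16 were also called with no filter (adjusted p = 0.00536 and 0.0471).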

Other observations

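The 10 genes with a member's name but a mean under 0.1 FPKM were Mmp1b, Mmp8, Mmp10, Mmp16, Mmp21, Mmp24, Adamts13, Adamts17, Adamts18 and Adamts20. Adamts13, the protease of von Willebrand factor, had 1 to 6 reads in the Cul3AKO-labelled libraries and 0 to 17 reads in WT. Mmp1b had 7 reads in Cul3AKO1 and 0 in the others. Adamts18 was at 0.0321 to 0.0754 FPKM in Cul3AKO-labelled fat and 0.0738 to 0.129 FPKM in WT fat.

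Apart from Mmp7, 4 genes were above 2 FPKM in Cul3AKO4 and more than 20 times above each other library. They were Mt3 (a metallothionein gene, 2.73 FPKM), Tmem212 (2.71 FPKM), Ccl21c (a chemokine gene of near-identical copies, 4.82 FPKM) and Gm25063 (2.15 FPKM). This set was chosen after the values were seen.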
